A study of Homo sapiens with 12 samples.

Results

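The ubiquitin-conjugating enzyme (E2) genes of the Hs695T melanoma line were followed through inhibition of the MAPK pathway, of histone deacetylases, or of both. Members were all protein-coding genes with a named array row whose symbol starts with UBE2 or with PSMA, PSMB, PSMC, PSMD, PSME or PSMG, each read from its brightest row. That gave 23 genes of 14599, namely 22 UBE2 genes and PSMC3IP. Each of the 23 had a single row. PSMC3IP carries the prefix because its protein binds a proteasome subunit, and it is not itself a subunit. The number of genes for proteasome subunits or their assembly factors among the members was 0, so the proteasome itself was not analysed here and what follows concerns E2 enzymes and PSMC3IP. RefSeq lists 36 protein-coding UBE2 genes, and those without a named row were not analysed here. Another 7 rows with such symbols were antisense RNAs or pseudogenes and were set aside.

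Ubiquitin is a small protein that cells attach to other proteins as a signal. An E1 enzyme activates it, an E2 enzyme carries it on a catalytic cysteine, and an E3 ligase brings the loaded E2 to the target. Chains of some linkages send a protein to the proteasome for destruction, while other linkages, or a single ubiquitin, mark it for signalling or DNA repair. The choice of E2 largely sets which chain is built, so E2 genes fall into groups by the work they do in mitosis, DNA damage tolerance, protein quality control or with ubiquitin-like modifiers.

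RNA was taken after 24 h from cells given one of 4 treatments, with 3 arrays each. The combination was dabrafenib, trametinib and entinostat together. MAPKi paired dabrafenib at 100 nM, which inhibits BRAF, and trametinib at 10 nM, which inhibits MEK. HDACi was entinostat at 1 µM, a blocker of class I histone deacetylases. Vehicle was DMSO. Hs695T is an established human melanoma cell line, so all 12 arrays come from cells of one line. Array titles speak of biological replicates and the series description of technical triplicates, and p-values here measure array-to-array spread, which may be technical.

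Changes are differences of log2 intensity ± the standard error of limma, and a change counts as passing when its Benjamini-Hochberg p over 14599 genes is below 0.05. The median intensity per array lay between 33.3 and 39.9 in combination arrays, between 37.5 and 40.8 in MAPKi arrays, between 48.3 and 51.6 in HDACi arrays and between 50.6 and 57.6 in vehicle arrays. Each result is therefore given as deposited and, marked "quantile", after quantile normalization, which gives every array the same distribution of values. The median change over all genes against vehicle was -0.72 with the combination, -0.48 with MAPKi and -0.20 with HDACi, and -0.04, 0.00 and -0.04 after quantile normalization. Which scale is nearer to RNA per cell was not tested. Of the melanocyte markers, S100B and SOX10 were bright, at 11.49 and 9.96 log2 units in vehicle arrays, whereas the pigment genes TYR and TYRP1 were dim, at 3.81 and 3.48, both in the dimmest of 10 equal bins of genes. Over all 8 measured melanocyte markers the median per vehicle array was 5.87 to 6.02. Over 4 measured markers of other cell types it was 5.31 to 5.59.

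On the deposited scale most members were lower under each treatment. All 23 fell with the combination (background 74.3% of all genes lower, 4.38% higher) and all 23 fell with MAPKi (background 66.2% lower, 2.97% higher). With HDACi 14 fell and 1 rose (background 37.2% lower, 10.4% higher). Members are brighter than most genes: 19 of 23 were above the median gene, and of 10 equal bins by brightness, bins 9 and 10 held 5 and 6 members, where changes on this scale were large for genes in general. The median change of the members was -1.28 with the combination, -0.74 with MAPKi and -0.48 with HDACi. Among all genes in bin 9, the brightest but one, the median change was -1.32, -0.78 and -0.45 in the same order. Bin 9 had the lowest median of the 10 bins in each of these comparisons. The values were -1.19, -0.74 and -0.37 in bin 10, and -0.72, -0.50 and -0.21 in bin 5, which held 3 members. After quantile normalization the members spread to both sides. With the combination 10 were lower and 5 higher (background 25.6% and 21%), with MAPKi 4 lower and 2 higher (background 14.7% and 14.2%), and with HDACi 9 lower and 6 higher (background 21.4% and 18.2%). The MAPKi counts lie near the background. With the combination and with HDACi the share of members lower was above the background and the share higher was at or above it, at member medians of -0.17 and -0.12, against -0.04 for all genes in both comparisons. The cause of that gap was not tested, and the results below concern single genes.

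**Figure D1:**
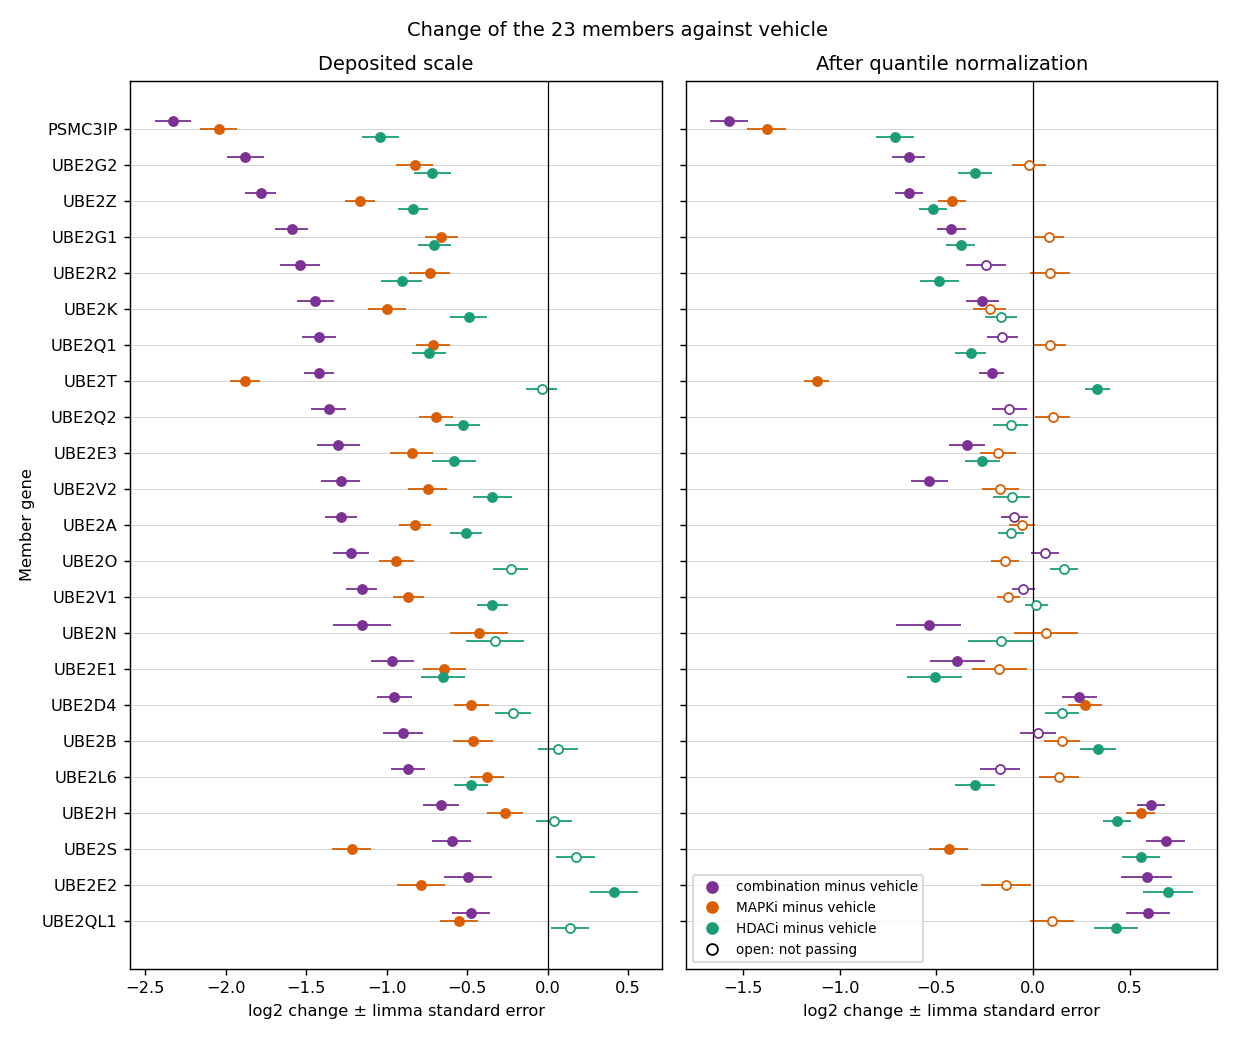
Each of the 23 members is a row, with its log2 change against vehicle ± the limma standard error (3 arrays per group) on the x axis, as deposited on the left and after quantile normalization on the right, and open circles mark changes that did not pass. All combination and MAPKi points lie left of 0 as deposited, whereas after quantile normalization PSMC3IP stays far to the left and UBE2H lies to the right for all 3 treatments.

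**Figure D2:**
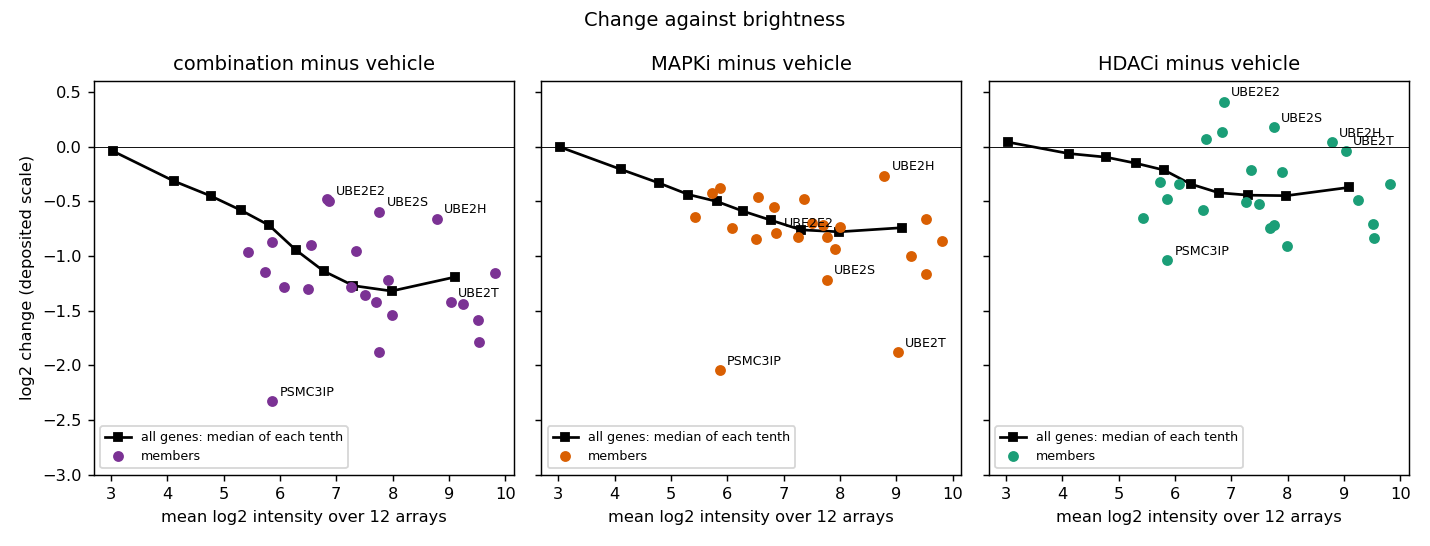
Deposited log2 change against vehicle (y axis) is plotted against mean log2 intensity over the 12 arrays (x axis), with 1 circle per member and black squares for the median of all genes in each of 10 equal bins by brightness. Most members follow the squares, while PSMC3IP lies far below them under all 3 treatments and UBE2T far below them with MAPKi.

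UBE2S and UBE2T, both E2 genes of dividing cells, fell with MAPKi and were higher when entinostat was added to it. UBE2S extends ubiquitin chains on substrates of the anaphase promoting complex, the ligase that drives exit from mitosis. Its log2 intensity was 7.38, 7.64 and 7.71 in combination arrays, 7.14, 7.01 and 6.71 in MAPKi arrays, 8.27, 8.36 and 8.41 in HDACi arrays and 8.22, 8.14 and 8.16 in vehicle arrays. Combination arrays lay above MAPKi arrays and below both other groups, and no 2 groups overlapped. The change with MAPKi was -1.22 ± 0.12 (adjusted p = 3.6e-07, quantile -0.44 ± 0.10, adjusted p = 0.0047), a 2.33-fold lower intensity. The combination was higher than MAPKi alone by 0.62 ± 0.12 (adjusted p = 0.00042, quantile 1.12 ± 0.10, adjusted p = 1.9e-06). Against vehicle the combination gave -0.59 ± 0.12 (adjusted p = 0.00031, quantile 0.68 ± 0.10, adjusted p = 9e-05), so its direction against vehicle depends on the scale. HDACi alone gave 0.18 ± 0.12 (adjusted p = 0.26, quantile 0.56 ± 0.10, adjusted p = 0.00062), which passed only after quantile normalization.

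UBE2T is the E2 of the Fanconi anaemia pathway, which repairs crosslinks between DNA strands. Its log2 intensity was 8.46, 8.45 and 8.42 in combination arrays, 8.0, 8.06 and 7.89 in MAPKi arrays, 9.74, 9.86 and 9.88 in HDACi arrays and 9.91, 9.81 and 9.87 in vehicle arrays. MAPKi arrays were the lowest and combination arrays stood between them and the other groups, whereas HDACi and vehicle arrays overlapped. The change with MAPKi was -1.88 ± 0.09 (adjusted p = 1.8e-10, quantile -1.12 ± 0.06, adjusted p = 4.7e-08), 3.68-fold lower and the strongest fall of any UBE2 gene on both scales. Adding entinostat to MAPKi raised it by 0.46 ± 0.09 (adjusted p = 0.00066, quantile 0.90 ± 0.06, adjusted p = 2.9e-07). UBE2S and UBE2T were the only 2 members that were higher with the combination than with MAPKi on the deposited scale (background 8.68% of genes higher), where 18 of 23 members were lower (background 40.6%). They were also higher after quantile normalization, where 5 members were higher (background 19.6%) and 8 lower (background 24%).

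**Figure D3:**
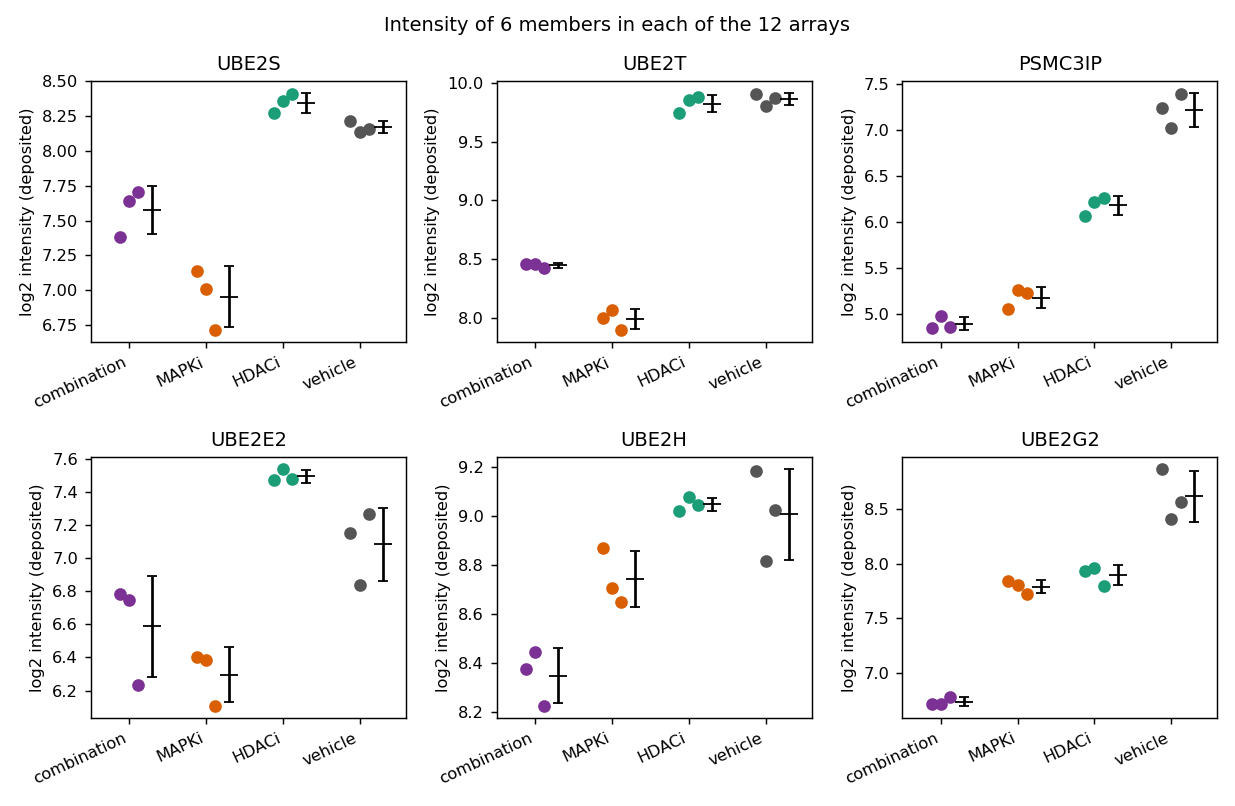
Deposited log2 intensity (y axis) of 6 members in each of 12 arrays, grouped by treatment, with the mean ± SD of 3 arrays as a black bar beside the points; y axes differ between panels and do not start at 0. UBE2S and UBE2T have combination arrays above MAPKi arrays, PSMC3IP and UBE2G2 have them lowest of all, and UBE2E2 is highest in HDACi arrays.

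The 250 bases before the annotated start of UBE2S, UBE2T and, as a member that moved the other way when entinostat was added to MAPKi, UBE2G2 are shown because the first 2 genes moved together. They are from RefSeq on GRCh38.p14, minus strand, at chr19:55407789-55408038, chr1:202341937-202342186 and chr21:44801821-44802070. Capitals mark matches on either strand to the CHR element of cell cycle genes (TTTGAA or TTTAAA), the CCAAT box (read ATTGG on the other strand), the E2F sites TTTCCCGC and TTTGGCGC, or the ETS core CCGGAAG.
UBE2S: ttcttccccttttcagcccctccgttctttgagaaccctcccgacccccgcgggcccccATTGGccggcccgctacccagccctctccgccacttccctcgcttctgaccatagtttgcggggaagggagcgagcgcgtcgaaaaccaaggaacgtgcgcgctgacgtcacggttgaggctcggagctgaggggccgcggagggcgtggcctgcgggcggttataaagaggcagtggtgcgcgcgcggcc
UBE2T: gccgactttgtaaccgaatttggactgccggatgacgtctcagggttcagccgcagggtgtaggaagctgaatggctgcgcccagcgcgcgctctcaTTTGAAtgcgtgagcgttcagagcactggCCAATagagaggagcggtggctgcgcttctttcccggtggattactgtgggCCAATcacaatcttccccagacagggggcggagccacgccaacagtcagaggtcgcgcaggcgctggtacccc
UBE2G2: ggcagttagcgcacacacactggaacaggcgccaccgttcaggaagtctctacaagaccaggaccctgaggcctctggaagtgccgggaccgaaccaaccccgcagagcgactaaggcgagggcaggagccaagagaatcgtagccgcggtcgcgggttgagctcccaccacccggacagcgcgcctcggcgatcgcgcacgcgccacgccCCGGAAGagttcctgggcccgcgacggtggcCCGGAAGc

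UBE2T holds TTTGAA, starting 153 bases before the start, and 2 CCAAT boxes at 124 and 73 bases. UBE2S holds 1 CCAAT box, at 191 bases. UBE2G2 holds 2 ETS cores that do not overlap, at 39 and 8 bases. Of 35116 such windows, 13.3% hold TTTGAA, 32% a CCAAT box and 8.52% the ETS core on either strand. The 19 member genes with a window have 27 windows. CCAAT was present in 7 of the 27 windows (6 genes) and the ETS core in 5 (5 genes). TTTGAA was in 1 window, TTTAAA (11.3% of all windows) in 1 and the E2F letters (1.93% of all windows) in 0. A match describes letters and not binding, and several genes have more than 1 annotated start.

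The partners of UBE2S were read from a list of 18 genes of the anaphase promoting complex and its regulators. All 18 were measured, and 14 were lower and 2 higher with the combination than with MAPKi as deposited (median -0.70), against 10 lower and 3 higher after quantile normalization (median -0.38). The background for this comparison was 40.6% lower and 8.68% higher as deposited, and 24% and 19.6% after quantile normalization. CDC20, the activator that UBE2S works with in mitosis, had the highest change of the list, 1.05 ± 0.11 (adjusted p = 1.3e-06, quantile 1.43, adjusted p = 1.4e-07). With MAPKi alone CDC20 gave -1.44 ± 0.11 (adjusted p = 2.3e-08, quantile -0.65, adjusted p = 0.00015). CDC23, a scaffold subunit of the complex, had the lowest change when entinostat was added, -1.63 ± 0.10 (adjusted p = 1.2e-08, quantile -1.20, adjusted p = 1.5e-07).

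PSMC3IP had the deepest fall of the 23 members with each treatment. Its protein, also called HOP2, helps DNA strands pair in homologous recombination. The log2 intensity was 4.85, 4.97 and 4.85 in combination arrays, 5.04, 5.25 and 5.22 in MAPKi arrays, 6.06, 6.21 and 6.26 in HDACi arrays and 7.24, 7.02 and 7.39 in vehicle arrays. All HDACi arrays lay below all vehicle arrays, and all MAPKi and combination arrays lay below both. The combination gave -2.33 ± 0.11 (adjusted p = 4.9e-11, quantile -1.57 ± 0.10, adjusted p = 7e-08), 5.02-fold lower. MAPKi gave -2.04 ± 0.11 (adjusted p = 5.5e-10, quantile -1.38 ± 0.10, adjusted p = 3.8e-07) and HDACi -1.04 ± 0.11 (adjusted p = 1.9e-06, quantile -0.71 ± 0.10, adjusted p = 9.2e-05). The fall with the combination was smaller than the sum of the single falls, by the interaction given below, where the limit of low signal is also given. The further change from MAPKi to the combination was -0.28 ± 0.11 (adjusted p = 0.049, quantile -0.19 ± 0.10, adjusted p = 0.14). On the deposited scale that small step failed the test when any HDACi array, MAPKi array 2 or 3, combination array 1 or 3, or vehicle array 1 was left out (adjusted p 0.052 to 0.15).

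The other E2 enzymes of DNA damage tolerance had smaller estimated changes with MAPKi than UBE2T. UBE2A and UBE2B are near-identical counterparts of yeast RAD6, which with the ligase RAD18 puts a single ubiquitin on the clamp PCNA at stalled replication forks. As the proteins are so alike, shared signal between the 2 rows was not tested. UBE2A gave -1.28 ± 0.10 (adjusted p = 6.6e-09, quantile -0.10 ± 0.07, adjusted p = 0.28) with the combination, -0.82 ± 0.10 (adjusted p = 3.1e-06, quantile -0.06 ± 0.07, adjusted p = 0.6) with MAPKi and -0.51 ± 0.10 (adjusted p = 0.00054, quantile -0.11 ± 0.07, adjusted p = 0.22) with HDACi. None of these passed after quantile normalization. UBE2B had log2 intensities of 6.04, 6.09 and 5.77 in combination arrays, 6.61, 6.45 and 6.16 in MAPKi arrays, 6.93, 6.99 and 6.88 in HDACi arrays and 6.98, 6.84 and 6.78 in vehicle arrays. HDACi arrays overlapped vehicle arrays, and combination arrays lay below all others. Its change with HDACi was 0.07 ± 0.12 (adjusted p = 0.7, quantile 0.33 ± 0.09, adjusted p = 0.012), while the combination minus HDACi was -0.97 ± 0.12 (adjusted p = 4.8e-06, quantile -0.31 ± 0.09, adjusted p = 0.031). RAD18, their ligase partner, fell under all 3 treatments, with -3.16 ± 0.11 (adjusted p = 2.6e-12, quantile -1.99, adjusted p = 7.4e-10) for the combination.

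UBE2N, the active E2 that builds signalling chains, and its inactive helper subunits UBE2V1 and UBE2V2 form heterodimers. All 3 were lower with the combination as deposited, and UBE2N and UBE2V2 also after quantile normalization. UBE2N gave -1.15 ± 0.18 (adjusted p = 2.2e-05, quantile -0.54 ± 0.17, adjusted p = 0.018) and UBE2V2 -1.28 ± 0.12 (adjusted p = 5.9e-08, quantile -0.54 ± 0.10, adjusted p = 0.00047). UBE2V1 gave -1.16 ± 0.10 (adjusted p = 1.3e-08, quantile -0.05 ± 0.06, adjusted p = 0.53), and its interval after quantile normalization ran from -0.18 to 0.08. UBE2N was the member with the widest spread among vehicle arrays, at 6.52, 6.35 and 5.75. Its deposited change with MAPKi, -0.43 ± 0.18 (adjusted p = 0.045, quantile 0.07 ± 0.17, adjusted p = 0.82), failed the test without MAPKi array 2 or 3, vehicle array 1 or 2, HDACi array 1 or combination array 1 (adjusted p 0.051 to 0.23).

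UBE2G2 and UBE2G1 fell with the combination and fell further than with MAPKi alone. They were among 8 members lower with the combination than with MAPKi on both scales, beside UBE2L6, UBE2N, UBE2Q1, UBE2R2, UBE2V2 and UBE2Z. Of all genes, 40.6% were lower in that comparison as deposited and 24% after quantile normalization. The share lower on both scales was not computed. UBE2G2 serves the pathway that removes misfolded proteins from the endoplasmic reticulum. Its log2 intensity was 6.71, 6.72 and 6.78 in combination arrays, 7.85, 7.80 and 7.72 in MAPKi arrays, 7.94, 7.96 and 7.80 in HDACi arrays and 8.87, 8.41 and 8.57 in vehicle arrays. Combination arrays lay well below MAPKi arrays, and MAPKi and HDACi arrays overlapped. The change was -1.88 ± 0.12 (adjusted p = 4.4e-10, quantile -0.64 ± 0.09, adjusted p = 5.4e-05) with the combination and -1.05 ± 0.12 (adjusted p = 1.9e-06, quantile -0.62 ± 0.09, adjusted p = 8.5e-05) when entinostat was added to MAPKi. With MAPKi alone it was -0.83 ± 0.12 (adjusted p = 1.3e-05, quantile -0.02 ± 0.09, adjusted p = 0.9), so the quantile value with MAPKi was near 0. UBE2G1, which extends chains for cullin ligases, had log2 intensities of 8.77, 8.68 and 8.56 in combination arrays, 9.56, 9.74 and 9.5 in MAPKi arrays, 9.52, 9.55 and 9.59 in HDACi arrays and 10.35, 10.24 and 10.19 in vehicle arrays. Combination arrays were again lowest, with -1.59 ± 0.10 (adjusted p = 8e-10, quantile -0.42 ± 0.08, adjusted p = 0.00056) against vehicle and -0.93 ± 0.10 (adjusted p = 2.1e-06, quantile -0.50 ± 0.08, adjusted p = 0.00017) against MAPKi. HDACi alone also lowered both genes on both scales. It gave -0.72 ± 0.12 (adjusted p = 8.2e-05, quantile -0.30 ± 0.09, adjusted p = 0.015) for UBE2G2 and -0.70 ± 0.10 (adjusted p = 3.4e-05, quantile -0.38 ± 0.08, adjusted p = 0.0017) for UBE2G1.

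UBE2R2, a close relative of CDC34 that works with SCF ligases, fell with HDACi, with -0.91 ± 0.13 (adjusted p = 2e-05, quantile -0.49 ± 0.10, adjusted p = 0.002). Its change with MAPKi was -0.73 ± 0.13 (adjusted p = 9.5e-05, quantile 0.09 ± 0.10, adjusted p = 0.59), which did not pass after quantile normalization. UBE2K, which builds degradation chains, gave -1.44 ± 0.12 (adjusted p = 8.9e-09, quantile -0.26 ± 0.08, adjusted p = 0.021) with the combination.

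UBE2Z was the UBE2 gene that fell on both scales under each of the 3 treatments. It receives ubiquitin from UBA6, an alternative E1 enzyme. Its log2 intensity was 8.75, 8.65 and 8.68 in combination arrays, 9.35, 9.39 and 9.20 in MAPKi arrays, 9.66, 9.63 and 9.63 in HDACi arrays and 10.49, 10.40 and 10.55 in vehicle arrays, and no 2 groups overlapped. The changes were -1.78 ± 0.10 (adjusted p = 1.1e-10, quantile -0.64 ± 0.07, adjusted p = 1.2e-05) with the combination, -1.16 ± 0.10 (adjusted p = 4.3e-08, quantile -0.42 ± 0.07, adjusted p = 0.00071) with MAPKi and -0.84 ± 0.10 (adjusted p = 2.8e-06, quantile -0.52 ± 0.07, adjusted p = 0.0001) with HDACi. UBA6 itself gave -1.64 ± 0.11 (adjusted p = 1.3e-09, quantile -0.37, adjusted p = 0.013) with the combination.

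The related E2 enzymes UBE2D4, UBE2E1, UBE2E2 and UBE2E3, which serve many RING ligases, did not move alike. UBE2E2 was the only member that rose with HDACi on the deposited scale. Its log2 intensity was 6.78, 6.74 and 6.23 in combination arrays, 6.40, 6.38 and 6.11 in MAPKi arrays, 7.47, 7.54 and 7.48 in HDACi arrays and 7.15, 6.84 and 7.26 in vehicle arrays. All 3 HDACi arrays lay above all vehicle arrays, and the combination arrays spread widely, with array 3 the lowest. The change with HDACi was 0.41 ± 0.15 (adjusted p = 0.032, quantile 0.70 ± 0.13, adjusted p = 0.00086). As deposited it failed the test without vehicle array 1 or 2 or without any 1 HDACi array (adjusted p 0.051 to 0.15), and the count of members higher was then 0. Against vehicle the combination gave -0.50 ± 0.15 (adjusted p = 0.0063, quantile 0.59 ± 0.13, adjusted p = 0.0024) for UBE2E2, passing in opposite directions on the 2 scales. Adding entinostat to MAPKi gave 0.29 ± 0.15 (adjusted p = 0.12, quantile 0.73 ± 0.13, adjusted p = 0.00056), and without combination array 3 the deposited change was 0.47 (adjusted p = 0.011). UBE2E1 and UBE2E3 instead fell with HDACi, with -0.65 ± 0.13 (adjusted p = 0.00073, quantile -0.51 ± 0.14, adjusted p = 0.012) and -0.58 ± 0.13 (adjusted p = 0.0019, quantile -0.26 ± 0.09, adjusted p = 0.038). UBE2D4 gave -0.95 ± 0.11 (adjusted p = 6.3e-07, quantile 0.24 ± 0.09, adjusted p = 0.044) with the combination, of opposite sign on the 2 scales.

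UBE2H and UBE2QL1 were at the upper end of the members. UBE2H is the E2 of the CTLH ligase complex. Its log2 intensity was 8.38, 8.44 and 8.22 in combination arrays, 8.87, 8.71 and 8.65 in MAPKi arrays, 9.02, 9.08 and 9.05 in HDACi arrays and 9.19, 8.82 and 9.02 in vehicle arrays. Combination arrays were below all others, while HDACi arrays lay within the range of vehicle arrays and 1 MAPKi array overlapped it. After quantile normalization all 9 treated arrays lay above all vehicle arrays, at 9.03, 9.03 and 8.91 in combination arrays, 9.01, 8.84 and 8.96 in MAPKi arrays, 8.83, 8.81 and 8.80 in HDACi arrays and 8.45, 8.29 and 8.40 in vehicle arrays. The changes were -0.66 ± 0.11 (adjusted p = 5.5e-05, quantile 0.61 ± 0.07, adjusted p = 2e-05) with the combination, -0.27 ± 0.11 (adjusted p = 0.046, quantile 0.56 ± 0.07, adjusted p = 8.3e-05) with MAPKi and 0.04 ± 0.11 (adjusted p = 0.8, quantile 0.43 ± 0.07, adjusted p = 0.00044) with HDACi. In bin 10, the brightest of all genes, the median deposited change was -1.19 with the combination and -0.74 with MAPKi. The sign of the UBE2H change depends on the scale. The deposited call with MAPKi was lost without any 1 HDACi array, MAPKi array 2 or 3, combination array 1, or vehicle array 1 or 3 (adjusted p 0.055 to 0.2).

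UBE2QL1, a little-studied relative of UBE2Q1 and UBE2Q2, had log2 intensities of 6.48, 6.64 and 6.61 in combination arrays, 6.32, 6.62 and 6.56 in MAPKi arrays, 7.19, 7.05 and 7.34 in HDACi arrays and 7.14, 6.89 and 7.14 in vehicle arrays. Combination and MAPKi arrays overlapped, as did HDACi and vehicle arrays. Its change with MAPKi was -0.55 ± 0.12 (adjusted p = 0.00065, quantile 0.10 ± 0.11, adjusted p = 0.6), and with HDACi 0.14 ± 0.12 (adjusted p = 0.37, quantile 0.43 ± 0.11, adjusted p = 0.0091). With the combination it was -0.48 ± 0.12 (adjusted p = 0.0016, quantile 0.59 ± 0.11, adjusted p = 0.00084), passing in opposite directions on the 2 scales. The combination minus MAPKi was 0.07 ± 0.12 (adjusted p = 0.64, quantile 0.50 ± 0.11, adjusted p = 0.0032). UBE2Q1 and UBE2Q2 fell with the combination as deposited, with -1.42 ± 0.11 (adjusted p = 3.5e-09, quantile -0.16 ± 0.08, adjusted p = 0.12) and -1.36 ± 0.11 (adjusted p = 7.9e-09, quantile -0.12 ± 0.09, adjusted p = 0.29), and neither passed after quantile normalization. UBE2Q1 did fall on both scales with HDACi, with -0.74 ± 0.11 (adjusted p = 2.5e-05, quantile -0.32 ± 0.08, adjusted p = 0.0062). It also fell on both when entinostat was added to MAPKi, with -0.71 ± 0.11 (adjusted p = 3.5e-05, quantile -0.25 ± 0.08, adjusted p = 0.025). UBE2Q2 passed in these comparisons only as deposited. UBE2O, a large enzyme that acts as E2 and E3 at once, gave -1.22 ± 0.11 (adjusted p = 3.1e-08, quantile 0.06 ± 0.07, adjusted p = 0.54) with the combination. Its combination minus MAPKi was -0.28 ± 0.11 (adjusted p = 0.042, quantile 0.20 ± 0.07, adjusted p = 0.037), passing in opposite directions on the 2 scales. UBE2L6 carries the interferon-induced modifier ISG15 and gave -0.48 ± 0.11 (adjusted p = 0.0014, quantile -0.30 ± 0.10, adjusted p = 0.036) with HDACi. Its ligase HERC5 moved the other way, with 1.93 ± 0.22 (adjusted p = 2.7e-06, quantile 1.89, adjusted p = 9.8e-05), while ISG15 gave -0.15 ± 0.13 (adjusted p = 0.38, quantile 0.05, adjusted p = 0.7).

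The effect of entinostat was next compared between cells without and with MAPKi, as the interaction (combination minus MAPKi) minus (HDACi minus vehicle). As deposited 2 members passed, both upwards (background 3.16% of genes higher, 4.84% lower). They were PSMC3IP, 0.75 ± 0.16 (adjusted p = 0.0069, quantile 0.52 ± 0.14, adjusted p = 0.03), and UBE2T, 0.50 ± 0.13 (adjusted p = 0.029, quantile 0.57 ± 0.09, adjusted p = 0.0013). For PSMC3IP the entinostat fall was smaller with MAPKi than without it. PSMC3IP was dim in MAPKi and combination arrays, with deposited means of 5.17 and 4.89. Dim genes changed little in general. The median of combination minus MAPKi over all genes was -0.11 in brightness bin 3 (median level 4.78) and -0.53 in bin 9. Whether low signal limited the further fall of PSMC3IP was not tested. UBE2T rose with entinostat in the presence of MAPKi, while its change without MAPKi was -0.04 ± 0.09 (adjusted p = 0.78, quantile 0.33 ± 0.06, adjusted p = 0.0011). The deposited UBE2T call was lost without HDACi array 1 or 2, MAPKi array 1 or 3, combination array 1 or 3, or vehicle array 3 (adjusted p 0.052 to 0.084), which left PSMC3IP as the 1 member higher. Without MAPKi array 3, UBE2B was also lower, with -0.63 (adjusted p = 0.029). After quantile normalization 3 members were higher and 2 lower (background 6.17% and 6.36%). The further ones were UBE2S, 0.45 ± 0.17 (adjusted p = 0.13, quantile 0.57 ± 0.14, adjusted p = 0.019), UBE2B, -0.51 ± 0.18 (adjusted p = 0.097, quantile -0.45 ± 0.13, adjusted p = 0.04), and UBE2H, -0.43 ± 0.16 (adjusted p = 0.12, quantile -0.38 ± 0.10, adjusted p = 0.033). CDC20 gave 1.03 ± 0.16 (adjusted p = 0.0006, quantile 1.03, adjusted p = 0.00028).

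**Figure D4:**
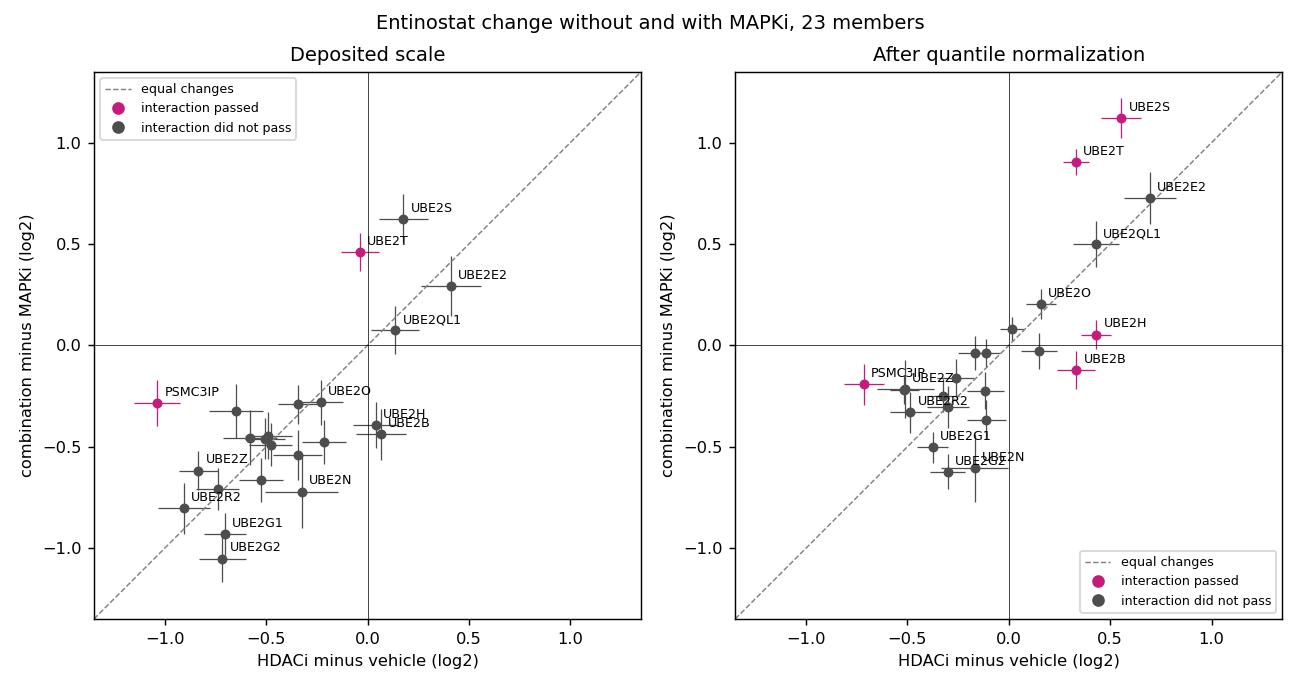
The change of each member when entinostat was added to MAPKi (y axis, combination minus MAPKi, log2) is set against its change with entinostat alone (x axis, HDACi minus vehicle, log2), with limma standard errors, as deposited on the left and after quantile normalization on the right. UBE2S and UBE2T lie above the dashed line of equal changes and UBE2B and UBE2H below it, with points coloured where the interaction passed.

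MAPKi added to entinostat lowered all 23 members as deposited (background 72.6% of genes lower, 0.644% higher), at a median of -0.83. After quantile normalization 5 were lower and 0 higher (background 12.5% and 10.5%). The 5 were UBE2T, -1.38 ± 0.09 (adjusted p = 1.3e-08, quantile -0.54 ± 0.06, adjusted p = 7.1e-05), PSMC3IP, -1.29 ± 0.11 (adjusted p = 1.3e-07, quantile -0.86 ± 0.10, adjusted p = 6.6e-05), UBE2G2, UBE2B and UBE2V2. Ranked by mean deposited level, vehicle was the highest group for 18 members and HDACi for 5, while the combination was the lowest for 19 and MAPKi for 4. Those 4 were UBE2S, UBE2T, UBE2E2 and UBE2QL1, and for the last 2 the combination and MAPKi arrays overlapped. After quantile normalization every group was highest for some members: the combination for 3, MAPKi for 7, HDACi for 5 and vehicle for 8. These places were not counted over all genes. As deposited, the combination mean was below the vehicle mean for 12951 of 14599 genes and below the MAPKi mean for 10896. Low combination means were thus common among all genes. Whether the full order of the members is particular to them was not tested.

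Genes around the E2 enzymes were read from lists, each set beside the share of all genes with the combination (as deposited 74.3% lower and 4.38% higher, after quantile normalization 25.6% lower and 21% higher). Of 16 measured proteasome partners outside the member prefixes, 16 were lower with the combination as deposited (median -1.54), and 14 were lower and 1 higher after quantile normalization (median -0.38). POMP, the chaperone that matures the proteasome core, gave -1.89 ± 0.11 (adjusted p = 3.5e-10, quantile -0.71, adjusted p = 1.4e-05), and AKIRIN2, which brings proteasomes into the nucleus, had the highest change, -0.63 ± 0.10 (adjusted p = 2.1e-05, quantile 0.66, adjusted p = 1e-05). Of 7 measured genes that control proteasome genes, 7 were lower as deposited (median -1.12), against 2 lower and 3 higher after quantile normalization (median 0.00). NFE2L2 was highest, -0.34 ± 0.11 (adjusted p = 0.0085, quantile 0.93, adjusted p = 1.2e-06), and KEAP1, whose protein holds NFE2L2 down, lowest, -1.91 ± 0.12 (adjusted p = 3.5e-10, quantile -0.70, adjusted p = 0.00024). NFE2L3, a further regulator, gave -0.72 ± 0.11 (adjusted p = 1.3e-05, quantile 0.48, adjusted p = 0.00024) with the combination. It gave -1.57 ± 0.11 (adjusted p = 6e-09, quantile -0.78, adjusted p = 7.1e-06) with MAPKi and was higher when entinostat was added to MAPKi, by 0.85 ± 0.11 (adjusted p = 7.5e-06, quantile 1.26, adjusted p = 1e-07).

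Of 15 measured E1 enzymes and E2 genes outside the UBE2 prefix, 15 were lower with the combination as deposited (median -1.53), and 11 were lower and 2 higher after quantile normalization (median -0.42). AKTIP, an inactive E2 relative, was highest there, -0.67 ± 0.11 (adjusted p = 5.3e-05, quantile 0.61, adjusted p = 9.5e-05). Of 7 modifier genes, 7 were lower as deposited (median -1.40), against 2 lower and 1 higher after quantile normalization (median -0.25), where URM1 was lowest, -1.95 ± 0.11 (adjusted p = 1.5e-10, quantile -0.93, adjusted p = 8.1e-06), and the polyubiquitin gene UBB highest, -1.0 ± 0.12 (adjusted p = 1.5e-06, quantile 0.27, adjusted p = 0.038). Of 11 measured ligases that pair with members, 10 were lower and 1 higher as deposited (median -1.56), and 6 were lower and 2 higher after quantile normalization (median -0.35). Of 6 measured genes of peptide loading, 6 were lower as deposited (median -0.86), against 1 lower and 4 higher after quantile normalization (median 0.36). Of 6 housekeeping genes, 6 were lower as deposited (median -1.24), and 2 were lower and 2 higher after quantile normalization (median -0.06).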

How the data were processed

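RNA of 12 samples of Hs695T cells, 3 per treatment, was measured on Affymetrix arrays. The deposited values are linear intensities; per the submitters' processing notes, the authors used Transcriptome Analysis Console and RMA. The sources used here do not give versions, the genome build or any scaling between arrays. Spike-in RNA was added before extraction, per the labels' protocols, and its use in scaling is not stated. The number of arrays limits the precision.

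Here log2 was taken of the deposited intensities. Of 29592 rows, 14783 were linked to 1 gene symbol by the platform annotation, 0 to several and 14809 to none, and the brightest row per gene left 14599 genes. limma 3.58.1 in R 4.3.3 fitted 1 mean per treatment over all 12 arrays (8 residual and 7.683 prior degrees of freedom), with Benjamini-Hochberg adjustment over all 14599 genes and a threshold of 0.05. The fit was tested on simulated data. Deviations of same-numbered arrays of different treatments correlated weakly (r from -0.1056 to 0.1214, median 0.03, against a median of -0.01 for other numbers). For 7 of 12 arrays the best-correlated array of another treatment had the same number. The numbers were not taken to pair arrays in the main fit. Alternatives were quantile normalization of all rows, median centring, the mean of a gene's rows, leaving out the dimmest 40% of genes, fitting only the arrays compared, a trended robust prior, a replicate block and leaving out each array.

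Every member could be named. Values per array were given for members among those with the most positive or negative changes or with a direction that differed between scales. Not all such members have them, and UBE2R2 and UBE2E1 are among those left out. Other lists were given by counts, medians and their extreme genes. UBA6, POMP, ISG15, HERC5, RAD18 and NFE2L3 were named for their roles, after their values were seen. The members and lists were chosen with earlier results of these data known.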

Additional observations from a re-analysis of the deposited data

Results flagged for a closer look

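PSMC3IP and UBE2T were set apart because their response to entinostat differed between cells with and without MAPKi by a test of that difference. The interaction in log2 units, limma on all 12 arrays, was 0.75 ± 0.16 for PSMC3IP (adjusted p = 0.0069) and 0.50 ± 0.13 for UBE2T (adjusted p = 0.029). After quantile normalization it was 0.52 for PSMC3IP (adjusted p = 0.03) and 0.57 for UBE2T (adjusted p = 0.0013). PSMC3IP was dim in MAPKi and combination arrays, at deposited means of 5.17 and 4.89, and whether low signal limited its further fall was not tested. Groups of 3 arrays are too small for a test of single outlying arrays.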

How the results depend on the processing

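Quantile normalization changed the counts most. Members lower became 10 with the combination, 4 with MAPKi, 9 with HDACi, 8 for the combination against MAPKi, 5 for the combination against HDACi and 2 for the interaction. Members higher became 5, 2, 6 and 5 in the first 4 of these comparisons. Median centring gave 19 lower with the combination, 15 with MAPKi and 13 with HDACi. It gave 15 lower for the combination against MAPKi, 16 against HDACi and 2 for the interaction. Members lower for the interaction were 1 without the dimmest 40% of genes and 1 with a trended robust prior. The share of all genes called was not computed for these settings. Of 138 single-gene values, 36 changed sign under quantile normalization and 9 under median centring, of which 31 and 7 passed the test on at least 1 of the scales. The cause was not tested.
Quantile values of opposite sign with the combination were UBE2B 0.025, UBE2D4 0.24, UBE2E2 0.59, UBE2H 0.61, UBE2O 0.0595, UBE2QL1 0.59 and UBE2S 0.68. With MAPKi they were UBE2B 0.15, UBE2D4 0.27, UBE2G1 0.0806, UBE2H 0.56, UBE2L6 0.13, UBE2N 0.0653, UBE2Q1 0.087, UBE2Q2 0.0996, UBE2QL1 0.0956 and UBE2R2 0.0869. With HDACi they were UBE2D4 0.15, UBE2O 0.16, UBE2T 0.33 and UBE2V1 0.0165. For the combination against MAPKi they were UBE2H 0.0534, UBE2O 0.20 and UBE2V1 0.0793. Against HDACi they were UBE2A 0.0171, UBE2D4 0.0882, UBE2E1 0.12, UBE2H 0.18, UBE2L6 0.13, UBE2Q1 0.16, UBE2QL1 0.17, UBE2R2 0.24 and UBE2S 0.13. For the interaction they were UBE2E2 0.0289, UBE2O 0.0467 and UBE2QL1 0.0708. Median centring turned UBE2E2 (0.0724) and UBE2QL1 (0.0896) with the combination, UBE2H (0.17), UBE2L6 (0.0605) and UBE2N (0.0101) with MAPKi, UBE2T (0.0623) with HDACi, UBE2L6 (0.0182) for the interaction, and UBE2E1 (0.15) and UBE2L6 (0.0787) for the combination against HDACi.
With each array left out on the deposited scale, members lower ranged over 23 to 23 with the combination, 21 to 23 with MAPKi, 13 to 15 with HDACi, 15 to 19 for the combination against MAPKi, 22 to 23 against HDACi and 0 to 1 for the interaction. Members higher ranged over 0 to 0, 0 to 0, 0 to 1, 2 to 3, 0 to 0 and 1 to 2 in that order. Of 1656 such single-gene values 58 lost and 7 gained a call, and 23 changed sign, of which 0 passed the test with or without the array. These ranged, for the interaction, from -0.0067 to 0.11 for UBE2A, -0.22 to 0.0566 for UBE2E2, -0.038 to 0.12 for UBE2K, -0.086 to 0.0485 for UBE2L6, -0.11 to 0.0349 for UBE2O, -0.048 to 0.0887 for UBE2Q1, -0.15 to 0.0208 for UBE2QL1 and -0.032 to 0.24 for UBE2R2. They ranged with HDACi from -0.0571 to 0.13 for UBE2H and -0.0659 to 0.0048 for UBE2T, and for the combination against MAPKi from -0.0152 to 0.13 for UBE2QL1. The replicate block, which rests on shared numbers only, turned 0 of 138 values, with 2 calls lost, 1 gained and 135 unaltered, and the best-correlated array of another treatment had the same number for 7 of 12 arrays. With the block 17 members were lower for the combination against MAPKi. Leaving out arrays after quantile normalization was not run.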
